A study of Homo sapiens with 6 samples.

Results

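The 5ʹ UTR sites of protein-coding isoforms were taken from long-read C-to-U edit calls of 6 HEK293T libraries. HEK293T is a human embryonic kidney cell line. A site entered when it lay on the strand of its isoform, in an exon upstream of the start codon, and when GENCODE v44 classed the isoform as protein-coding. This gave 28886 combinations of isoform, position and library, hereafter edited Cs, which were 3.44% of the 839700 listed in all. They covered 23218 distinct sites in 4545 isoforms of 4035 genes, out of 8658 listed protein-coding isoforms with a 5ʹ UTR. The reference base was C at 100% of them.

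RBFOX2-INSCRIBE uses a rabbit antibody against RBFOX2, a splicing regulator that binds UGCAUG, on methanol-fixed cells. Apo1-Nb, the cytosine deaminase APOBEC1 fused to a nanobody against rabbit IgG, is then attached to the antibody, and C-to-U editing runs overnight at 37 °C. The 2 enzyme-only libraries received Apo1-Nb without the antibody, and the 2 buffer-only libraries received neither. RNA depleted of ribosomal RNA was sequenced as full-length PacBio reads, and the libraries are named here by the numbers in their titles, which are 2 and 3 for enzyme-only. The files list edited positions and their edit fraction (the share of reads with the edit) without read numbers, so the depth behind each value is unknown, and neither RBFOX2 levels nor markers of the cell line could be checked.

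The 5ʹ UTR is the stretch of an mRNA between its cap and its start codon. The small ribosomal subunit scans it for the first suitable AUG, and upstream open reading frames, terminal oligopyrimidine (TOP) tracts at the cap and iron-responsive elements within it regulate how much protein is made. It is the most G- and C-rich part of most human mRNAs. Here GC content was 64.3% over the 1760070 nt of 5ʹ UTR, against 49.1% in coding sequence (CDS) and 40.2% in 3ʹ UTRs of the same isoforms. The median 5ʹ UTR was 138 nt long, and 161 nt among isoforms with a listed 5ʹ UTR site.

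The following windows from hg38, spliced and read 5ʹ to 3ʹ on the mRNA, show what the edited Cs look like. The first set holds the sites with the highest mean edit fraction among those listed in both RBFOX2-INSCRIBE libraries and in no control library, with the edited C in capitals.
GPBP1L1, chr1:45660673-45660693, minus strand: uuggaguugaCugcucagauc
XPO1, chr2:61537649-61537669, minus strand: ggugggaaaaCugaaacccac
PANX1, chr11:94129247-94129267, plus strand: cgccgcgcagCuuucccgacg
ACO1, chr9:32384661-32384681, plus strand: gcgcagcgcaCgggaacgcgu
BAIAP2L1, chr7:98400853-98400873, minus strand: gcucgcccggCggccgcagcc
CCDC14, chr3:123957598-123957618, minus strand: uuuuucuacaCaaaagguugu

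The edited C of GPBP1L1, a paralog of the transcription factor GPBP1, lay at chr1:45660683 and had edit fractions of 7.14% and 2.13% in the 2 RBFOX2-INSCRIBE libraries. A further 2 sites of the same 5ʹ UTR, at chr1:45660970 and chr1:45660989, had the same fractions in both libraries. As read numbers are unknown, these GPBP1L1 sites may lie on the same reads and are not taken as independent. A ranking by edit fraction can favour sites with few reads, so the fractions of this set do not show strong editing. The fractions were 7.69% and 1.54% in XPO1 (a nuclear export receptor), 3.85% and 4.55% in PANX1 (a membrane channel) and 3.12% and 4.76% in ACO1, the cytosolic aconitase that also acts as an iron regulatory protein. They were 3.45% and 3.70% in BAIAP2L1 and 2.50% and 4.35% in CCDC14. A stood before the edited C in GPBP1L1, XPO1, ACO1 and CCDC14, and G in PANX1 and BAIAP2L1. BAIAP2L1 and PANX1 had G- and C-rich surroundings, while CCDC14 had an A- and U-rich one.

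The second set holds ACG sites with high mean edit fractions among those in both RBFOX2-INSCRIBE libraries. The capitals mark ACG, in which a C-to-U change at the middle base reads AUG. ACO1 heads this set too, with the window given above.
TMLHE, chrX:155612796-155612816, minus strand: uuagcagucACGaccuccagc
CSTF3, chr11:33161348-33161368, minus strand: uucccaucgACGgucagugcg
LYSMD3, chr5:90525299-90529466, minus strand and across an exon junction: ucccugcuaACGgggacagau

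The third set holds UGCAUG, in capitals, in 5ʹ UTRs with most edited Cs within 50 nt of it in both RBFOX2-INSCRIBE libraries.
CCDC14, first of 2 shown, chr3:123957633-123957662, minus strand: caagauacuggaUGCAUGuaaaagcaaaug
CCDC14, second of 2 shown, chr3:123957383-123957412, minus strand: caugaauuaacuUGCAUGuuucaaagaauu
ADSS2, chr1:244451889-244451909, minus strand: cucUGCAUGuggcuggcggcc
SEPHS2, chr16:30445847-30445874, minus strand: aggaagauugUGCAUGccgugggucuga
PNMA1, chr14:73713740-73713769, minus strand: guuaaucgugacUGCAUGaaggucgccucc

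More 5ʹ UTR Cs were listed as edited in RBFOX2-INSCRIBE than in either control, and the ratios to the controls were lower than in the other regions of the same isoforms. Against enzyme-only, the G-to-A changes of 5ʹ UTRs differed by a like factor, as given with them. Edited Cs per 100 reference Cs of 5ʹ UTRs were 1.08 and 1.05 in the 2 RBFOX2-INSCRIBE libraries, 0.685 and 1.00 in enzyme-only and 0.742 and 0.738 in buffer-only. Both RBFOX2-INSCRIBE libraries lay above all 4 controls, and the enzyme-only libraries lay on either side of buffer-only. The group means were 1.06 ± 0.0221 (SD, n = 2), 0.843 ± 0.224 and 0.740 ± 0.00285. This was 1.26 times enzyme-only and 1.43 times buffer-only (two-sided exact permutation test, p = 0.33 for each, the smallest p that 2 against 2 libraries allow). Enzyme-only over buffer-only was 1.14 with overlapping libraries (exact p = 1), and 0.925 without enzyme-only replicate 3. Leaving out enzyme-only replicate 2 gave 1.06 for RBFOX2-INSCRIBE over enzyme-only, and leaving out enzyme-only replicate 3 gave 1.55. Per the methods the replicates of each group were on separate slides of the same cell line, and the labels do not tie a library to a slide, so that slide and replicate cannot be told apart. Each p measures only the spread between these libraries, which may be technical.

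The distinct sites per library numbered 5845 and 5670 in RBFOX2-INSCRIBE, 3726 and 5433 in enzyme-only and 4045 and 4016 in buffer-only. Enzyme-only replicate 2 stood apart with the fewest, and it also listed the fewest G-to-A changes, the strand-reversed counterpart, in 5ʹ UTRs (0.531 per 1000 Gs, against 0.682 to 0.812 in the other 5 libraries). RBFOX2-INSCRIBE over enzyme-only was 1.29 for these G-to-A changes, beside 1.26 for edited Cs, and over buffer-only it was 1.02, beside 1.43. Whether library size or coverage has a part in this was not tested. In CDS the gain of RBFOX2-INSCRIBE over buffer-only was 2.05 times, and in 3ʹ UTRs edited Cs per 100 Cs were 3.31 and 3.45 against 0.873 and 0.850. In buffer-only the 3 regions were therefore within a narrow range, while RBFOX2-INSCRIBE separated them.

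**Figure D1:**
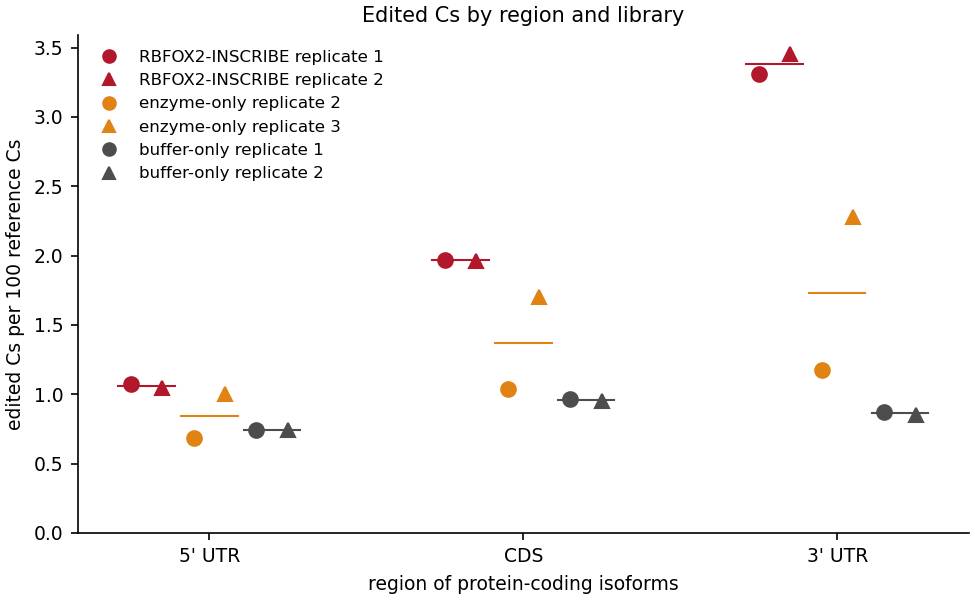
Edited Cs per 100 reference Cs (y axis, from 0) in the 5ʹ UTR, CDS and 3ʹ UTR of protein-coding isoforms, with a point per library and a line at each group mean of 2 libraries. RBFOX2-INSCRIBE reaches 1.06 in 5ʹ UTRs and over 3 in 3ʹ UTRs, while buffer-only lies between 0.738 and 0.966 in all regions.

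The edited rate of 5ʹ UTRs relative to that of 3ʹ UTRs compares regions within a library. It was 0.325 and 0.303 in RBFOX2-INSCRIBE, 0.583 and 0.439 in enzyme-only and 0.850 and 0.869 in buffer-only. The groups did not overlap, and RBFOX2-INSCRIBE was at 0.615 times enzyme-only and 0.365 times buffer-only (exact p = 0.33 each). The share of 5ʹ UTRs among exonic edited Cs followed the same order, with 3.02% and 2.87% in RBFOX2-INSCRIBE, 4.53% and 3.70% in enzyme-only and 5.83% and 5.91% in buffer-only. The C-to-U edits in 5ʹ UTRs, divided by the G-to-A changes there, were 12.4 and 12.8 in RBFOX2-INSCRIBE, 11.9 and 13.7 in enzyme-only and 8.50 and 9.38 in buffer-only. By this ratio both groups that received Apo1-Nb lay above buffer-only (1.41 and 1.43 times, exact p = 0.33 each), and RBFOX2-INSCRIBE and enzyme-only overlapped (0.981 times, exact p = 1).

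The edit fraction itself was low everywhere. Its median over 5ʹ UTR edits was 0.617% and 0.662% in RBFOX2-INSCRIBE, 0.671% and 0.676% in enzyme-only and 0.613% and 0.592% in buffer-only. RBFOX2-INSCRIBE was at 1.06 times buffer-only and 0.950 times enzyme-only (exact p = 0.33 each). For edited Cs per 100 Cs the ratios were 1.43 and 1.26. As read numbers are unknown, the fraction of a listed C may follow its depth. These medians therefore cannot tell whether the strength of editing differed.

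The gain in 5ʹ UTRs over buffer-only was carried mostly by Cs after A or U, the bases that APOBEC1 is known to favour before its target. Per 1000 Cs after A, edited Cs numbered 17.6 and 16.9 in RBFOX2-INSCRIBE, 8.52 and 15.4 in enzyme-only and 5.25 and 5.57 in buffer-only, a ratio of 3.20 to buffer-only. After U they numbered 12.6 and 12.2, then 7.13 and 11.1, then 5.85 and 5.91, a ratio of 2.11. After C the ratio to buffer-only was 1.10 and after G it was 1.11. Against enzyme-only the ratios lay closer together, at 1.44 after A, 1.36 after U, 1.22 after C and 1.16 after G. Cs after G were the most edited class in buffer-only, at 10.9 per 1000 in both libraries. The rate after A or U over the rate after C or G was 1.60 and 1.58 in RBFOX2-INSCRIBE, 1.18 and 1.46 in enzyme-only and 0.685 and 0.715 in buffer-only, and no groups overlapped (exact p = 0.33 for each pair).

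The base makeup of 5ʹ UTRs differed from that of 3ʹ UTRs. Of their Cs, 11.9% followed A and 18.3% followed U, against 23.9% and 28.7% in 3ʹ UTRs. Cs after A were also edited less in 5ʹ UTRs than in 3ʹ UTRs, where RBFOX2-INSCRIBE had 59.9 and 63.6 per 1000. Within Cs after A, the rate in 5ʹ UTRs over that in 3ʹ UTRs was 0.295 and 0.266 in RBFOX2-INSCRIBE, 0.474 and 0.399 in enzyme-only and 0.717 and 0.762 in buffer-only. RBFOX2-INSCRIBE was thus at 0.379 times buffer-only within Cs after A and at 0.390 times within Cs after U, beside 0.365 over all Cs. Within Cs after G it was at 0.737 times and within Cs after C at 0.855 times (exact p = 0.33 for each class). The gap between the regions was widest in the classes where RBFOX2-INSCRIBE gained most over buffer-only. The part of base makeup in it was not tested.

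**Figure D2:**
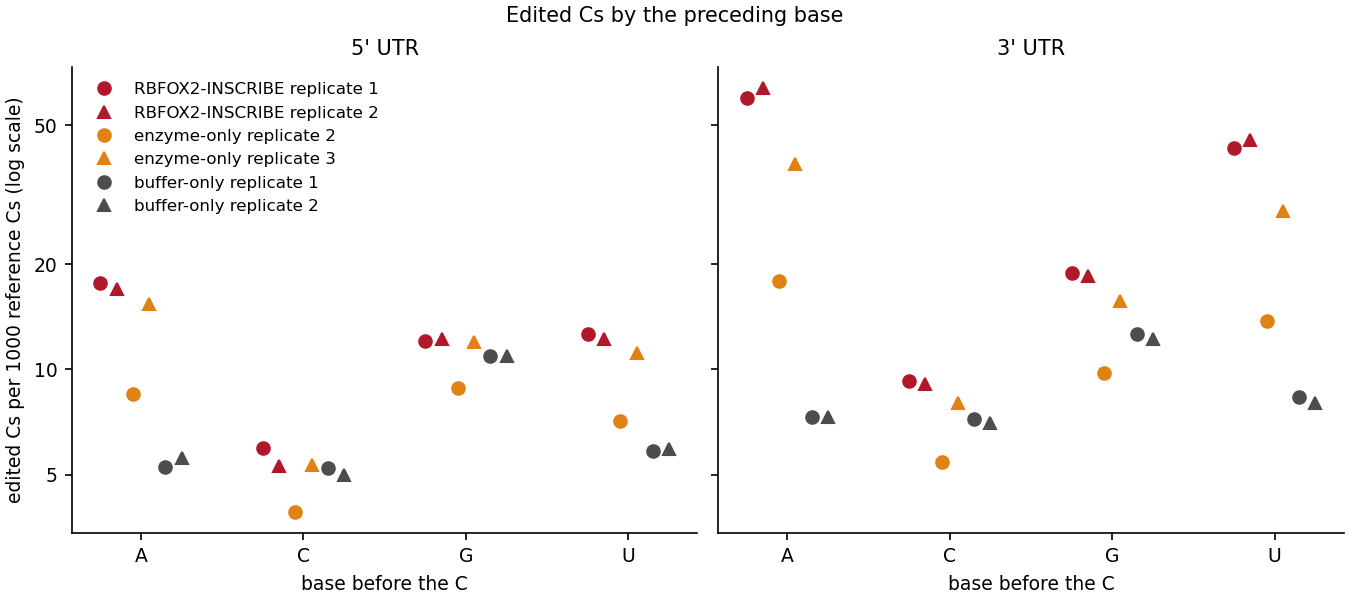
Edited Cs per 1000 reference Cs (log scale) by the base before the C, in 5ʹ UTRs (left) and 3ʹ UTRs (right), with a point per library. After A, RBFOX2-INSCRIBE has 17.6 and 16.9 in 5ʹ UTRs and 59.9 and 63.6 in 3ʹ UTRs, while after C and G the groups lie close together in 5ʹ UTRs.

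The A and U content around the C showed the same pattern over a wider window. Where over 0.7 of the surrounding 21 nt were A or U, edited Cs of 5ʹ UTRs per 1000 were 24.0 and 22.5 in RBFOX2-INSCRIBE, 9.77 and 20.9 in enzyme-only and 4.42 and 3.88 in buffer-only. RBFOX2-INSCRIBE was at 5.60 times buffer-only there, against 6.83 times for 3ʹ UTR Cs in windows of the same kind. The mean rates per 1000 were lower in 5ʹ UTRs, with 23.2 against 71.1 in RBFOX2-INSCRIBE and 4.15 against 10.4 in buffer-only. Where the share of A or U was over 0.6 and up to 0.7, the ratio to buffer-only was 3.43 in 5ʹ UTRs and 5.01 in 3ʹ UTRs. Windows with a share of A or U over 0.7 held only 1.37% of 5ʹ UTR Cs, against 15.6% of 3ʹ UTR Cs. At the other end, with at most 0.2 of A or U, lay 27.9% of 5ʹ UTR Cs, and the ratio was 1.17. Buffer-only went the other way and had its lowest rates in the windows richest in A and U.

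**Figure D3:**
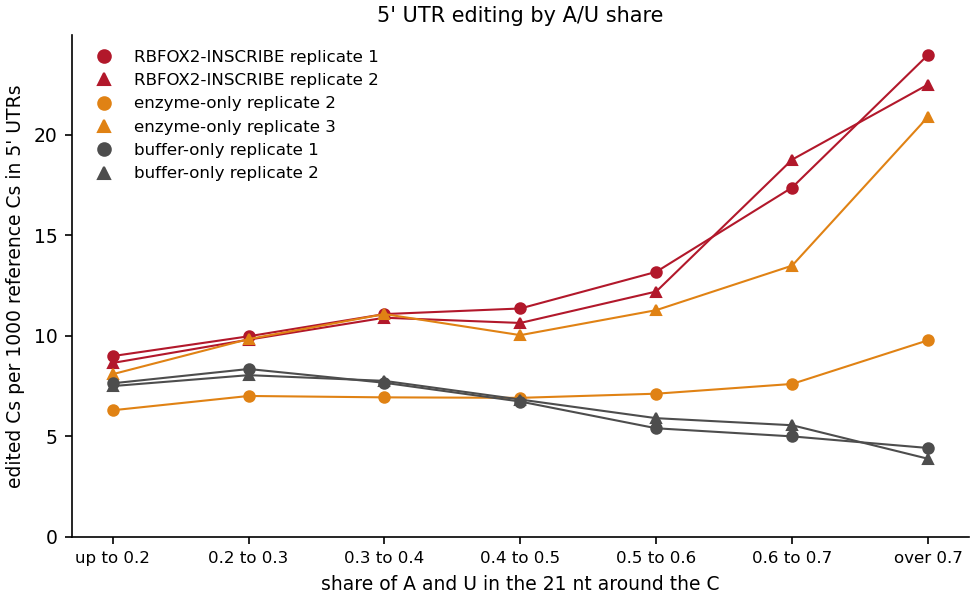
Edited Cs per 1000 reference Cs of 5ʹ UTRs (y axis, from 0) by the share of A and U in the 21 nt around the C, with a line per library. RBFOX2-INSCRIBE climbs from about 9 to 24.0 and 22.5, enzyme-only replicate 3 reaches 20.9, and buffer-only falls to 4.42 and 3.88.

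The base after the C also went with the size of the gain. RBFOX2-INSCRIBE over buffer-only was 1.73 for Cs before A and 1.79 before U, against 1.26 before C and 1.28 before G. Within Cs after A, it was 4.35 for ACA and 4.76 for ACU, against 2.11 for ACC and 2.51 for ACG. Cs before G, as in CpG, were edited more than other Cs with the same preceding base by 1.34 and 1.36 times in RBFOX2-INSCRIBE, 1.42 and 1.39 times in enzyme-only and 1.50 and 1.42 times in buffer-only. All 6 libraries lay above 1, with RBFOX2-INSCRIBE lowest (0.927 times buffer-only, exact p = 0.33).

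Edited Cs gathered toward the start codon. In the last 10 nt before it, edited Cs per 1000 were 18.5 and 17.0 in RBFOX2-INSCRIBE, 12.9 and 16.4 in enzyme-only and 12.1 and 11.1 in buffer-only. Beyond 500 nt upstream they were 3.97 and 5.31, then 1.85 and 3.93, then 2.47 and 2.47. Counted against all Cs of the same 5ʹ UTRs, the last 50 nt held 1.16 ± 0.00685 (SD, n = 2) times the number given by an even spread in RBFOX2-INSCRIBE, 1.14 ± 0.0131 in enzyme-only and 1.13 ± 0.00455 in buffer-only. The first 50 nt of the annotated isoform held 0.804 times the even spread in both RBFOX2-INSCRIBE libraries, 0.798 and 0.812 times in enzyme-only and 0.835 and 0.838 times in buffer-only. Every library thus had fewer edits near the annotated cap and more near the start codon. The part of read starts in this was not tested.

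**Figure D4:**
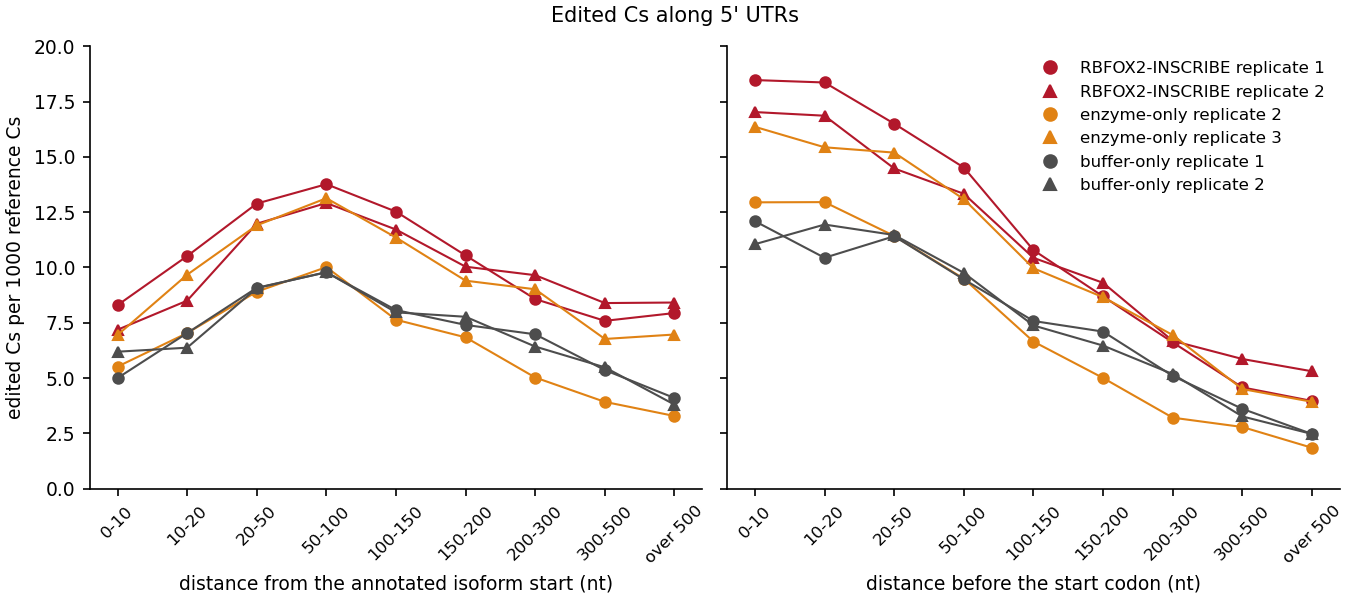
Edited Cs per 1000 reference Cs of 5ʹ UTRs (y axis, from 0) by distance from the annotated isoform start (left) and by distance before the start codon (right), with a line per library. Rates in RBFOX2-INSCRIBE fall from 18.5 and 17.0 next to the start codon to 3.97 and 5.31 beyond 500 nt, and the controls fall alike.

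UGCAUG was rare in 5ʹ UTRs. It occurred 148 times, 0.841 per 10000 nt, against 2.24 in CDS and 3.15 in 3ʹ UTRs, and 138 of 8658 isoforms (1.59%) had it in their 5ʹ UTR. Edited 5ʹ UTR Cs were counted within 50 nt of a UGCAUG anywhere in the mRNA, so the motif could also lie past the start codon. They numbered 39 and 47 in RBFOX2-INSCRIBE, 10 and 29 in enzyme-only and 16 and 16 in buffer-only. Against the number given by an even spread over all Cs of the same 5ʹ UTRs, these were 1.09 and 1.31 times in RBFOX2-INSCRIBE, 0.758 and 1.09 times in enzyme-only and 0.782 and 1.06 times in buffer-only. RBFOX2-INSCRIBE was above buffer-only without overlap (1.30 times, exact p = 0.33), but the nearest libraries were at 1.09 and 1.06. CCDC14 alone gave 5 of the 39 and 7 of the 47 edited Cs in RBFOX2-INSCRIBE, and the ratio without it was not tested. The RBFOX2-INSCRIBE and enzyme-only libraries overlapped (1.30 times, exact p = 0.67). Under 1% of 5ʹ UTR edits of any library lay that near to the motif.

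CCDC14, which encodes a centriolar satellite protein, had the most edits near UGCAUG. Its isoform ENST00000489746 carries an annotated 5ʹ UTR of 3162 nt with 3 UGCAUG, and edited Cs within 50 nt of any of them numbered 5 and 7 in RBFOX2-INSCRIBE, 0 and 1 in enzyme-only and 0 and 0 in buffer-only. The motif at chr3:123957645-123957650 had 2 and 4 in RBFOX2-INSCRIBE and none in the 4 controls. The motif at chr3:123957395-123957400 had 3 and 3 in RBFOX2-INSCRIBE and 1 in a single control library, enzyme-only replicate 3. Near the third motif, at the start of the isoform, no library had an edit. Over the whole 5ʹ UTR, CCDC14 had 13 and 14 edited Cs in RBFOX2-INSCRIBE, 2 and 5 in enzyme-only and 3 and 2 in buffer-only.

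The other 5ʹ UTRs of this kind had fewer edits. ADSS2, an enzyme of AMP synthesis, had 1 and 4 edited Cs near its motif in RBFOX2-INSCRIBE, 0 and 3 in enzyme-only and none in buffer-only. PNMA1 had 2 and 2, then 1 and 1, then none. SEPHS2, a selenophosphate synthetase, had 4 and 1 in RBFOX2-INSCRIBE, 2 and 1 in enzyme-only and 1 and 1 in buffer-only, and ALDH3A2, a fatty aldehyde dehydrogenase, had 1 and 2, then 1 and 0, then 1 and 0. All 5 were chosen for their edits in both RBFOX2-INSCRIBE libraries, so their counts describe these 5ʹ UTRs and test nothing.

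ACG was the sequence in 5ʹ UTRs whose editing would read as a new AUG. Edited ACG numbered 304 and 278 in RBFOX2-INSCRIBE, 161 and 267 in enzyme-only and 111 and 121 in buffer-only. Against an even spread over all Cs of the same 5ʹ UTRs, this was 1.86 and 1.76 times in RBFOX2-INSCRIBE, 1.56 and 1.81 times in enzyme-only and 1.02 and 1.13 times in buffer-only. The 2 groups with Apo1-Nb lay above buffer-only (1.68 and 1.57 times, exact p = 0.33 each) and overlapped with each other (1.07 times, exact p = 0.67). Cs after A were edited more in general in both, and ACG stood at 22.5 and 20.6 per 1000 in RBFOX2-INSCRIBE beside 22.6 and 21.3 for ACU.

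Of the 989 combinations of isoform and ACG position edited in any library, 161 would give an AUG in frame with the start codon and with no stop codon before it, as read from the reference mRNA. These numbered 62 and 52 in RBFOX2-INSCRIBE, 34 and 45 in enzyme-only and 19 and 24 in buffer-only. A further 320 would run past the start codon out of frame. The remainder, 194 in frame and 314 out of frame, met a stop codon before the start codon.

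Among the ACG sites shown, LYSMD3 at chr5:90529456 was in frame with no stop codon, 20 nt before the A of the start codon, and had edit fractions of 2.70% and 1.59% in RBFOX2-INSCRIBE. ACO1 at chr9:32384671 and TMLHE, a carnitine synthesis enzyme, at chrX:155612806 were out of frame and ran past the start codon, with fractions of 2.38% and 2.78% in TMLHE. CSTF3, a cleavage stimulation factor subunit, at chr11:33161358 had 2.00% and 2.35%, and its reading frame would meet a stop codon before the start codon. None of these 4 sites was listed in a control library, and whether any edited mRNA was translated was not measured.

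Most 5ʹ UTR sites were seen in a single library. Of 23218 distinct sites, 19185 (82.6%) were listed in 1 library, 2926 in 2 and 64 in 5. Both RBFOX2-INSCRIBE libraries shared 736 sites, which were 12.6% and 13.0% of each, both enzyme-only libraries shared 406 (10.9% and 7.47%) and both buffer-only libraries shared 435 (10.8% and 10.8%). In 3ʹ UTRs the RBFOX2-INSCRIBE libraries shared 30.4% of the smaller library's sites and buffer-only shared 8.99%. Of the 736 sites 323 (43.9%) were in no other library, against 156 of 406 (38.4%) for enzyme-only and 156 of 435 (35.9%) for buffer-only. No site of any region was listed in all 4 libraries that received Apo1-Nb, among 635496 distinct sites in all, although 54 of the 5ʹ UTR sites were in all 4 libraries of RBFOX2-INSCRIBE and buffer-only. Per the methods, edits that recurred through all samples were taken out as likely SNPs. Sites edited in every library with Apo1-Nb therefore do not enter any value given here. The 736 and the 406 thus lack the sites common to both groups. Their shares in no other library are not directly comparable with that of buffer-only.

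Single 5ʹ UTRs held few edited Cs, which limited tests on them. Those of PABPC1, JUN, HSPA5 and GPBP1 had the most in RBFOX2-INSCRIBE. PABPC1, the cytoplasmic poly(A)-binding protein, had 64 and 48 edited Cs of 183 Cs in RBFOX2-INSCRIBE, 17 and 50 in enzyme-only and 41 and 46 in buffer-only. JUN, a subunit of AP-1, had 34 and 37, then 15 and 27, then 25 and 32, and HSPA5, the chaperone BiP, had 32 and 27, then 13 and 29, then 34 and 24. Against buffer-only, both RBFOX2-INSCRIBE libraries were higher in PABPC1 and JUN and overlapped in HSPA5. None of the 3 passed limma's test of that comparison, with adjusted p-values of 0.22 in PABPC1, 0.35 in JUN and 0.89 in HSPA5.

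Against enzyme-only, no 5ʹ UTR passed. Of the 8658 5ʹ UTRs, 408 averaged 3 or more edited Cs over the 4 libraries. At an adjusted p under 0.05 limma called 0 of these 5ʹ UTRs, with a background of 0% of 9609 isoform regions of all kinds. The regions were 5ʹ UTR, CDS, 3ʹ UTR or all exons of an isoform not classed as protein-coding. At an unadjusted p under 0.05 there were 33 5ʹ UTRs, of which 28 were higher in RBFOX2-INSCRIBE. The median log2 difference was 0.45 over the 5ʹ UTRs and 0.83 over all regions.

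The 5 smallest p-values went both ways. ATP6AP2, an accessory protein of the vacuolar ATPase, had 8 and 10 edited Cs in RBFOX2-INSCRIBE, 0 and 2 in enzyme-only and 4 and 8 in buffer-only (adjusted p = 0.32). CHMP2B, a subunit of ESCRT-III, had 6 and 7, then 1 and 1, then 0 and 2, and SPG21 had 5 and 8, then 2 and 0, then 0 and 2. RAB22A, an endosomal GTPase, had 0 and 1 in RBFOX2-INSCRIBE and 6 and 6 in enzyme-only, and H2AZ1, the histone variant H2A.Z, had 1 and 3 against 11 and 6. None of the 5, chosen for their p-values, passed the adjustment (limma, adjusted p from 0.32 to 0.37), and all 5 averaged under 3 edited Cs in the lower of the 2 groups.

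Against buffer-only, 41 of 380 5ʹ UTRs that averaged 3 or more edited Cs passed limma's adjusted p of 0.05, in 39 genes, of which 40 were higher in RBFOX2-INSCRIBE. This share of 10.8% was below the background of 38.5% over 8902 isoform regions (38.4% for those higher in RBFOX2-INSCRIBE), with 24.3% of CDS and 55.6% of 3ʹ UTRs. 5ʹ UTRs that were tested also held fewer edited Cs, with a median over features of 4.5 per library against 9.5 in 3ʹ UTRs. The median log2 difference was 0.45 over the 5ʹ UTRs and 1.49 over all regions. When buffer-only replicate 1 or buffer-only replicate 2 was left out, the 5ʹ UTR median was 0.45 and 0.51, beside 1.47 and 1.45 over all regions. Each of these fits left 1 buffer-only library. Scaled to equal totals of edited Cs per library, 0 of 8939 isoform regions of any kind passed. The median became -1.13 over the 5ʹ UTRs, beside -0.050 over all regions. Scaled counts are relative to all edited Cs of a library, most of which lay outside 5ʹ UTRs. Of the 213 5ʹ UTRs at an unadjusted p under 0.05 after scaling, 2 were higher in RBFOX2-INSCRIBE, against 72 of 75 without scaling.

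**Figure D5:**
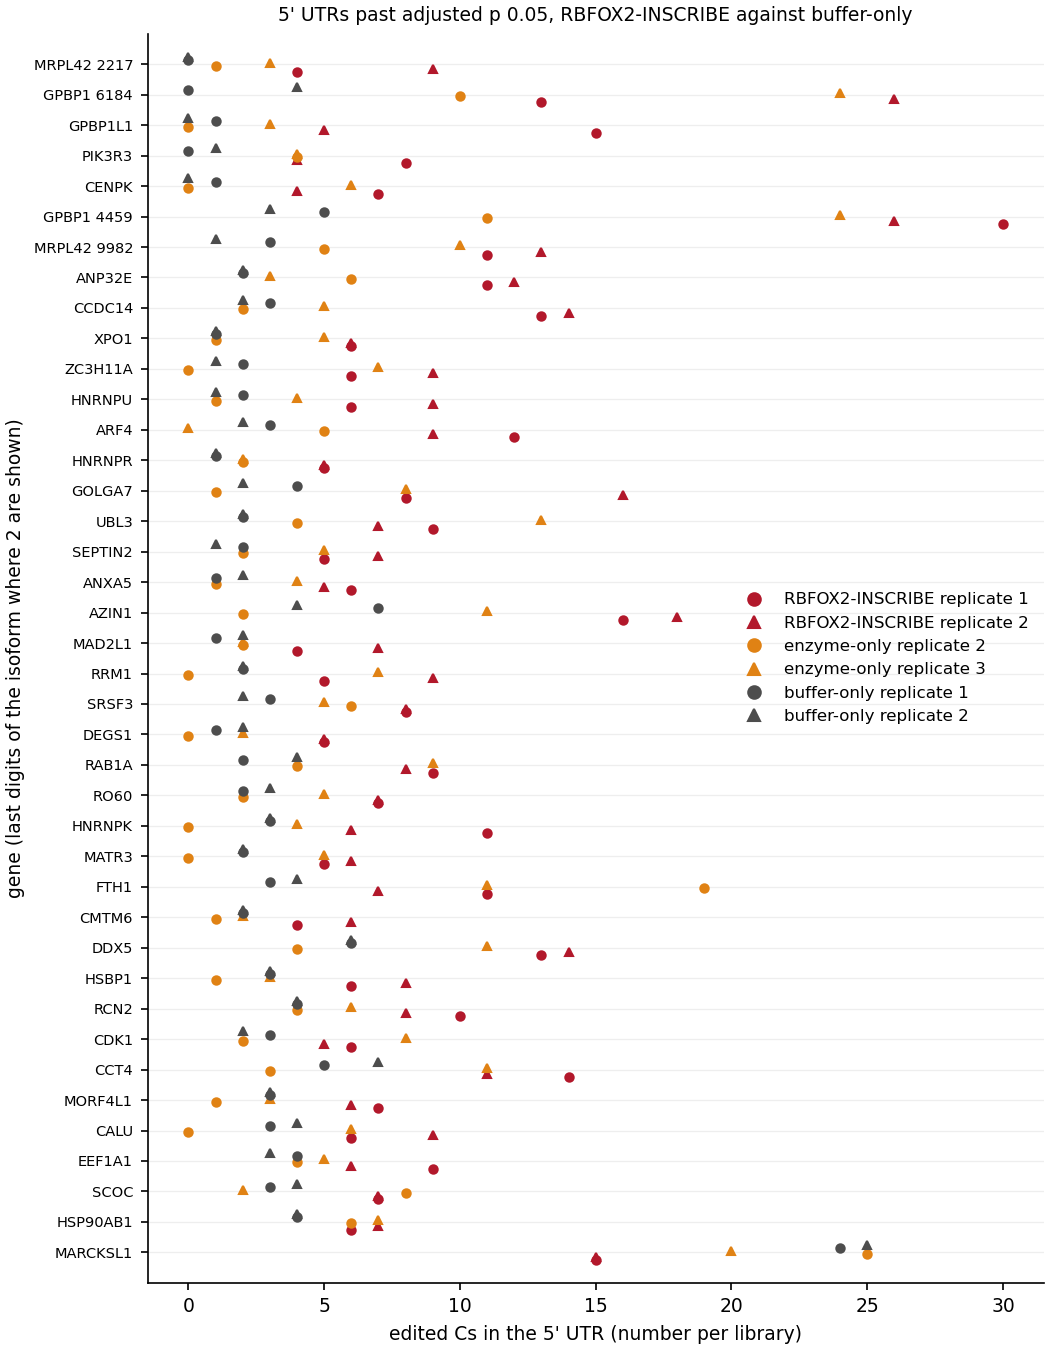
Number of edited Cs (x axis) in 40 of the 41 5ʹ UTRs past an adjusted p of 0.05 between RBFOX2-INSCRIBE and buffer-only, with a point per library, ordered by log2 difference. RBFOX2-INSCRIBE lies to the right of buffer-only in 39 of them and to the left in MARCKSL1, where it has 15 and 15 against 24 and 25.

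The largest differences were in MRPL42, GPBP1, GPBP1L1, PIK3R3 and CENPK. The minimum of 3 favours such 5ʹ UTRs: 24 of the 41 averaged under 3 edited Cs in their lower group and reached it only through the higher group, against 110 of the 380 tested (28.9%), and the 5 largest, MRPL42 ENST00000552217, GPBP1 ENST00000506184, GPBP1L1, PIK3R3 and CENPK, were all of this kind. MRPL42, a mitochondrial ribosomal protein, had 4 and 9 edited Cs in isoform ENST00000552217 in RBFOX2-INSCRIBE, 1 and 3 in enzyme-only and 0 and 0 in buffer-only (adjusted p = 0.0079). As buffer-only was at 0 and read numbers are unknown, no fold is given for it. Its second isoform, ENST00000549982, had 11 and 13, then 5 and 10, then 3 and 1, a log2 difference from buffer-only of 2.44 ± 0.42 (SE, limma adjusted p = 0.013).

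GPBP1, which binds GC-rich promoters, had 30 and 26 edited Cs in the 1274-nt 5ʹ UTR of ENST00000424459 in RBFOX2-INSCRIBE, 11 and 24 in enzyme-only and 5 and 3 in buffer-only. Its log2 difference from buffer-only was 2.70 ± 0.40 (SE, limma adjusted p = 0.0099). The isoform ENST00000506184, which shares much of this sequence, had 13 and 26, then 10 and 24, then 0 and 4 (adjusted p = 0.046). In GPBP1 the enzyme-only libraries also lay above buffer-only, and RBFOX2-INSCRIBE and enzyme-only overlapped in the second isoform.

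GPBP1L1 had 15 and 5 edited Cs in RBFOX2-INSCRIBE, 0 and 3 in enzyme-only and 1 and 0 in buffer-only (limma adjusted p = 0.030). PIK3R3, a regulatory subunit of PI3-kinase, had 8 and 4, then 4 and 4, then 0 and 1 (adjusted p = 0.036). CENPK, a kinetochore protein, had 7 and 4, then 0 and 6, then 1 and 0 (adjusted p = 0.025). Each of these 3 had at most 1 edited C in a buffer-only library, so their size rests on small counts.

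Further 5ʹ UTRs that passed were named after their values were seen. ANP32E, a chaperone that removes the histone variant H2A.Z, had 11 and 12 edited Cs in RBFOX2-INSCRIBE, 6 and 3 in enzyme-only and 2 and 2 in buffer-only, a log2 difference of 2.26 ± 0.25 (SE, limma adjusted p = 0.0079). SRSF3, a splicing factor of the SR family, had 8 and 8, then 6 and 5, then 3 and 2, and DDX5, an RNA helicase, had 13 and 14, then 4 and 11, then 6 and 6. HNRNPK, an RNA-binding protein of the hnRNP family, had 11 and 6, then 0 and 4, then 3 and 3. The log2 differences from buffer-only were 1.52 in SRSF3, 1.11 in DDX5 and 1.30 in HNRNPK.

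MARCKSL1, an actin-regulating substrate of protein kinase C, was the only one of the 41 that fell. It had 15 and 15 edited Cs in RBFOX2-INSCRIBE, 25 and 20 in enzyme-only and 24 and 25 in buffer-only, a log2 difference from buffer-only of -0.69 ± 0.18 (SE, limma adjusted p = 0.033). Both RBFOX2-INSCRIBE libraries were below all 4 controls.

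Between enzyme-only and buffer-only, 1 of 314 5ʹ UTRs passed (22 at an unadjusted p under 0.05), against a background of 0.0269% of 7435 isoform regions. PSMA4, a subunit of the proteasome core, had 8 and 6 edited Cs in enzyme-only, 0 and 1 in buffer-only and 4 and 6 in RBFOX2-INSCRIBE (limma adjusted p = 0.038). RAB22A, with 6 and 6 against none, had an adjusted p of 0.059. The median log2 difference over 5ʹ UTRs was 0.0054 and that over all regions was 0.66, and 50.6% of the 5ʹ UTRs were higher in enzyme-only. The 5ʹ UTR median had no settled sign: it was -0.70 scaled to equal totals, beside -0.014 over all regions. It was 0.36 with enzyme-only replicate 2 left out and -0.27 with enzyme-only replicate 3 left out. PSMA4 too averaged under 3 edited Cs in buffer-only. Without enzyme-only replicate 2, 25 of 336 5ʹ UTRs passed beside 537 of 7670 isoform regions in that fit, and with any other of the 4 libraries left out none did.

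Genes grouped by what their 5ʹ UTRs are known for showed no list in which most tested members passed, and values given are of the isoform with the most edited Cs. Their counts stand beside 10.8% of tested 5ʹ UTRs and 38.5% of all isoform regions past the threshold against buffer-only, and each list had few tested members. Of 95 genes with TOP mRNAs, which encode ribosomal proteins and elongation factors, 64 had an edited C in their 5ʹ UTR. Their 5ʹ UTRs had 162 and 97 edited Cs in all in RBFOX2-INSCRIBE, 126 and 106 in enzyme-only and 96 and 100 in buffer-only. RBFOX2-INSCRIBE was at 1.32 times buffer-only, with replicate 2 between the 2 buffer-only libraries. Of 5 5ʹ UTRs tested against buffer-only 1 passed and was higher, that of EEF1A1, the elongation factor that brings aminoacyl-tRNA to the ribosome. It had 9 and 6 edited Cs of 18 Cs, then 4 and 5, then 4 and 3, and a log2 difference of 0.99 ± 0.25 (SE, limma adjusted p = 0.032), which became -0.39 with libraries scaled to equal totals. This call was also lost with all 3 groups in the fit and with any 1 of the 4 libraries left out. The median over the 5 was 0.35, beside 1.49 over all regions. HNRNPA1 had 12 and 5, then 7 and 11, then 9 and 6.

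Of 29 genes whose upstream open reading frames are known to regulate translation, 18 had an edited C in their 5ʹ UTR, with 57 and 73 in all in RBFOX2-INSCRIBE, 43 and 61 in enzyme-only and 38 and 43 in buffer-only. Of 7 tested against buffer-only, 1 passed and was higher, and the median log2 difference was 0.54. That 5ʹ UTR was of AZIN1, the antizyme inhibitor of polyamine metabolism, with 16 and 18, then 2 and 11, then 7 and 4 (log2 difference 1.59 ± 0.39, SE, limma adjusted p = 0.029), a call lost with all 3 groups in the fit and with any 1 of the 4 libraries left out. ODC1, ornithine decarboxylase of the same pathway, had 9 and 7, then 3 and 3, then 5 and 1 (adjusted p = 0.12). EIF5, an initiation factor, had 2 and 17, then 22 and 13, then 3 and 7, and its RBFOX2-INSCRIBE libraries lay on either side of buffer-only.

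Of 6 genes with an iron-responsive element in the 5ʹ UTR, 3 had an edited C there. FTH1, the ferritin heavy chain, had 11 and 7 edited Cs in RBFOX2-INSCRIBE, 19 and 11 in enzyme-only and 3 and 4 in buffer-only. It was the 1 of 2 that passed against buffer-only (log2 difference 1.23 ± 0.37, SE, limma adjusted p = 0.0497, and -0.16 scaled), and enzyme-only replicate 2 was its highest library. This call was lost with the replicate block, a pseudocount of 0.1, a minimum of 1, all 3 groups in the fit and any 1 of the 4 libraries left out. FTL, the ferritin light chain, had 3 and 1, then 6 and 0, then 5 and 3, and SLC40A1, the iron exporter ferroportin, had a single edited C, in buffer-only. The median over the 2 tested 5ʹ UTRs was 0.14.

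Of 29 genes known for long, structured or IRES-bearing 5ʹ UTRs, 16 had an edited C, with 71 and 84 in all in RBFOX2-INSCRIBE, 45 and 63 in enzyme-only and 44 and 50 in buffer-only. Of 5 tested against buffer-only, 1 passed and was higher, and the median log2 difference was 1.07. MYC, the transcription factor, had 12 and 16, then 12 and 13, then 5 and 8 (adjusted p = 0.077), and EIF4G2, an initiation factor that works without cap binding, had 9 and 14, then 7 and 17, then 11 and 13.

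Cap-binding and initiation factors were measured as a list of 30 genes, of which 20 had an edited C in their own 5ʹ UTR. These held 27 and 32 edited Cs in RBFOX2-INSCRIBE, 27 and 35 in enzyme-only and 22 and 18 in buffer-only. None of 3 passed against buffer-only, with a median log2 difference of 0.45. EIF4A3, a helicase of the exon junction complex, had 8 and 4, then 8 and 8, then 7 and 6, EIF2S2 had 3 and 6, then 0 and 4, then 3 and 3, and EIF4EBP2 had 4 and 5, then 3 and 4, then 3 and 3. Against enzyme-only, no 5ʹ UTR of any of the 5 lists passed (limma).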

How the data were processed

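Per the labels, 6 libraries of HEK293T RNA (2 RBFOX2-INSCRIBE, 2 enzyme-only, 2 buffer-only) were sequenced with the Kinnex full-length kit, and the submitters' processing notes name hg38. The authors aligned the reads, kept those assigned to a single isoform, called C-to-U edits and removed known variants and edits found across samples. The deposited value is an edit fraction per isoform and position, without read numbers, so no interval that needs depth can be given, and the number of libraries limits the precision.

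Positions were placed on GENCODE v44 isoforms, which may not be the authors' annotation, and 0.309% of the entries had no match. Base context was read from the spliced reference. Opposite-strand entries in 5ʹ UTRs (2543) were counted as G-to-A. Library-level values were compared by two-sided exact permutation over libraries. For single regions, limma (version 3.58.1, R 4.3.3) was fitted to log2((edited Cs + 0.5)/Cs) with trend and robust moderation, over all isoform regions that averaged 3 or more edited Cs, with Benjamini-Hochberg adjustment and a threshold of 0.05. It was also run on simulated Poisson counts with large changes and no added spread between libraries. That run does not show how the test performs on small differences or on libraries that vary more. Ratios, fold values and log2 differences are thus computed here, from the deposited positions and fractions. Leave-one-out, edit fractions of at least 0.02, isoforms in all 6 libraries, MANE_Select isoforms, other windows, pseudocounts, minimums, scaling, a joint fit and a replicate block were tried.

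Named were the 5 5ʹ UTRs with most edited Cs in RBFOX2-INSCRIBE, the 5 with the largest called difference (or smallest p) per comparison, the 5 with most edits near UGCAUG in both RBFOX2-INSCRIBE libraries, the 3 genes with most edited Cs per list, and the 8 sites and 5 ACG sites with the highest fractions up to 0.3. Of these, windows are printed for the sites and motifs that the text describes, and 3 genes that the rule names are not reported here. The members and the gene lists were chosen with earlier results of these data known.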

Additional observations from a re-analysis of the deposited data

How the results depend on the processing

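Several ratios changed direction when an enzyme-only library was left out. Enzyme-only over buffer-only turned below 1 without enzyme-only replicate 3 for distinct sites (0.924) and edited Cs per 100 Cs (0.925), with ranges up to 1.35 over the other libraries. With 1 library left out, RBFOX2-INSCRIBE over enzyme-only ranged from 0.998 (when enzyme-only replicate 2 was out) to 1.16 for ACG, from 0.990 to 1.01 for the first 50 nt and from 0.920 to 1.05 for C-to-U edits over G-to-A changes, the upper ends of both when enzyme-only replicate 3 was out. The first 50 nt also gave 1.01 over isoforms in all 6 libraries. Near UGCAUG, enzyme-only over buffer-only was 1.00 and gave 0.821 to 1.18 with 1 library left out (0.821 without enzyme-only replicate 3, 0.870 without buffer-only replicate 1), 0.536 at edit fractions of at least 0.02, 0.963 over isoforms in all 6 libraries, 0.886 over MANE_Select isoforms, 0.981 with a window of 25 nt and 0.996 with 100 nt. For RBFOX2-INSCRIBE over enzyme-only the motif ratio of 1.30 kept its direction but ranged from 1.10 to 1.58 with 1 library left out, and was 3.09 at edit fractions of at least 0.02 and 1.01 with GCAUG. The ratios not named here kept their direction under the alternatives run. An alternative chosen after seeing the data, which left out sites in all 4 libraries of any 2 groups, gave distinct-site ratios of 1.26, 1.45 and 1.15.

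Scaling turned directions, and several settings changed the number of 5ʹ UTRs past the threshold. Against buffer-only, the 41 of RBFOX2-INSCRIBE became 16 with all 3 groups in the fit, 0 scaled to equal totals, 0 at edit fractions of at least 0.02, and 0 to 44 with 1 library left out. Scaled, 213 had an unadjusted p under 0.05 and 2 of them were higher, against 72 of 75 as listed. This scaling also turned the median of 5ʹ UTRs to -1.13, beside -0.050 over all regions, and the differences of FTH1 (-0.16) and EEF1A1 (-0.39). Against enzyme-only the median over 5ʹ UTRs became -0.39 scaled, beside 0.0061 over all regions. With 1 library left out this 5ʹ UTR median ranged from -0.024 (enzyme-only replicate 2 left out) to 0.85. At edit fractions of at least 0.02 the medians were 1.62 against enzyme-only (13 5ʹ UTRs tested) and 1.63 against buffer-only (11 tested). For enzyme-only against buffer-only the single call became 0 with a pseudocount of 0.1, a minimum of 1 edited C or scaling. It also became 0 with the joint fit or at edit fractions of at least 0.02. In each of these settings 0% of all isoform regions passed. With a pseudocount of 1 or a minimum of 5, 2 5ʹ UTRs passed, beside 0.269% and 1.45% of all isoform regions. The causes were not tested.

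With the replicate number as a block, 3 of 408 5ʹ UTRs passed for RBFOX2-INSCRIBE against enzyme-only (1.38% of all isoform regions), 47 of 380 for RBFOX2-INSCRIBE against buffer-only (36.8%) and 3 of 314 for enzyme-only against buffer-only (0.309%). The numbers are not known to pair the libraries: same-numbered libraries deviated with correlations of 0.0899, 0.00958 and -0.0136, and the titles and the replicate field number the enzyme-only libraries differently.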
